A study of Mus musculus with 18 samples.

Results

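The genes of 8 paralogous protease inhibitors of mouse liver were followed over 6 diet and treatment groups: Serpina1a, Serpina1b, Serpina1c, Serpina1d, Serpina1e, Serpina3k, Serpina3m and Serpina3n. They were the members with those symbols among the 23532 genes to which the deposited RefSeq rows were assigned, and each gene was represented by its most abundant row, by the mean of the 18 libraries. The choice of row used no difference between groups, but the members were chosen with earlier results of these data known. All 8 passed the filter of at least 1 RPKM in at least 3 libraries, which left 10356 genes in the test. RPKM, reads normalised to transcript length and to library size, is a level per transcript length and can be compared between genes.

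The libraries came from liver of wild type C57BL/6J mice and were made from polyA RNA. The 6 groups, of 3 libraries each (n = 3), were labelled LF, HF, LF+CR, HF+CR, LF+Ex and HF+Ex. The labels hold only these abbreviations; LF and HF are taken to mean a low-fat and a high-fat diet, CR caloric restriction and Ex exercise, as is usual in such studies. Treatment began when the mice were 5 weeks old and liver was collected at 62 weeks. Sex is not given, nor whether each library is 1 animal, so that the p-values below measure the spread between these samples, which may be technical.

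Serpins are suicide inhibitors: a protease cuts the exposed reactive-centre loop as if it were a substrate and is trapped by the serpin as it refolds. Serpina1 genes encode alpha-1-antitrypsin, secreted by hepatocytes into plasma and best known as the inhibitor of neutrophil elastase. Serpina3 genes are the mouse counterparts of the human antichymotrypsin gene. Both families expanded by duplication in the mouse, and the copies differ most in the loop that selects the protease. Serpina3k, also called contrapsin, inhibits trypsin-like proteases, and Serpina3n inhibits granzyme B and leukocyte elastase and is an acute-phase gene.

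All 8 genes lie in one block of serpin genes on chromosome 12, chr12:103616675-104414334 of GRCm38, the assembly also called mm10, which the authors' processing notes name. The block holds 28 Serpina genes, of which 24 had a deposited row and 15 were tested. The coding stretch that holds the reactive-centre loop is shown for the 5 Serpina1 genes because it is where these copies can best be told apart. It was read from GENCODE M21 transcripts on the minus strand, lies in the last of 5 exons, and runs 87 bases or 29 codons between codons conserved at both ends. Capitals mark bases that differ from Serpina1a.
Serpina1a: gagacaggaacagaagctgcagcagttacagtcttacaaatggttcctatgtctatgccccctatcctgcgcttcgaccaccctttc
Serpina1b: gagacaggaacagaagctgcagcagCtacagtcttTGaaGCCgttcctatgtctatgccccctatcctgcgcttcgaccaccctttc
Serpina1c: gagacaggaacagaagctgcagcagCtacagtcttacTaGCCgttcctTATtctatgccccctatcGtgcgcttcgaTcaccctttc
Serpina1d: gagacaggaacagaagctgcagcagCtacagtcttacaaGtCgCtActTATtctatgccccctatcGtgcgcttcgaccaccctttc
Serpina1e: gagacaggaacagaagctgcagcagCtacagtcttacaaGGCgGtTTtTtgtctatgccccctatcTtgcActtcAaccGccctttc
These stretches lie at chr12:103853750-103853836 (Serpina1a), chr12:103728317-103728403 (Serpina1b), chr12:103895087-103895173 (Serpina1c), chr12:103763755-103763841 (Serpina1d) and chr12:103947093-103947179 (Serpina1e). Serpina1e differed most from Serpina1a, at 12 bases, and 8 of its codons encoded another residue. Residue changes numbered 4 codons in Serpina1b, 5 in Serpina1c and 6 in Serpina1d. Identity to Serpina1a within the stretch was 86.2% for Serpina1e and 93.1% for Serpina1b, and in the rest of the coding sequence it was 97.3% for both.

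The corresponding stretches of the 3 Serpina3 genes are shown to set them against each other, on the plus strand, with capitals at bases that differ from Serpina3n.
Serpina3n: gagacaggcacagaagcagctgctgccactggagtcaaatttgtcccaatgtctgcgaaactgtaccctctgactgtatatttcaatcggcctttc
Serpina3k: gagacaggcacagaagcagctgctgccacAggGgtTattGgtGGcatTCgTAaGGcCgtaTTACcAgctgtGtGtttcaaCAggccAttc
Serpina3m: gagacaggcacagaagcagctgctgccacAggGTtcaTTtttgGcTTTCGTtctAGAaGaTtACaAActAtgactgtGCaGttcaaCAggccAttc
They lie at chr12:104413442-104413537 (Serpina3n), chr12:104345263-104345352 (Serpina3k) and chr12:104393763-104393858 (Serpina3m). The Serpina3k stretch is 90 bases long and the others are 96 bases. Identity to Serpina3n was 69.8% for Serpina3k and 70.8% for Serpina3m, against 83.6% and 86.4% in the rest of the coding sequence.

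This similarity bears on every value of a single gene. Of the 50-base windows of the Serpina1a transcript, 80.9% occurred letter for letter in a transcript of another gene, and the share was 74.2% for Serpina1c, 50.9% for Serpina1d, 47.1% for Serpina1b and 37.9% for Serpina1e. It was lower for Serpina3m (19.1%), Serpina3k (14%) and Serpina3n (6.9%). How the authors divided reads that fit several copies is not given in the sources used here, so the split within Serpina1 is uncertain, most of all between Serpina1a and Serpina1c, and family sums are given beside the genes. The sums were not tested.

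The promoters of the 5 Serpina1 genes were alike. The RefSeq table for GRCm38.p6 held 6 of the 8 members, with 250 bases before to 50 bases after the start of each. Over the 10 pairs of Serpina1 genes, identity ran from 91.4% to 97.6% of the positions at which the 2 windows aligned. The letters TTCNNNGAA, the core of a STAT site, occurred on either strand in 0 of 5 Serpina1 windows, in 0 of 1 Serpina3 window, and in 8.30% of all 32851 promoters of that length. The 250 bases before the start are shown for Serpina1b, the steadiest member, and Serpina1e, the most variable, on the minus strand, with capitals for bases that differ from the other gene or are missing from it in the alignment.
Serpina1b: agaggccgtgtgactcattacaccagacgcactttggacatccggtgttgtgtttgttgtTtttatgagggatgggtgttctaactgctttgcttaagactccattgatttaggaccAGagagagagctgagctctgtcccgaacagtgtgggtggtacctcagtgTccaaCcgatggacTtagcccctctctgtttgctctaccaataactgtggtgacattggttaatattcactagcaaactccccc
Serpina1e: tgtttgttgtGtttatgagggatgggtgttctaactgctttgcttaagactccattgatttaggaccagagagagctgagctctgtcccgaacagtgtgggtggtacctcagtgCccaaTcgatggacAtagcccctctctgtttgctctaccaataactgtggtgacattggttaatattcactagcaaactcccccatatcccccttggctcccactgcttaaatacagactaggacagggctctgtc
The windows are chr12:103738190-103738439 and chr12:103956898-103957147. Over the 250 positions at which the full windows of these 2 genes aligned, identity was 97.6% and 6 positions differed. The first 50 bases printed for Serpina1b lay outside this alignment, so their lower case marks no match. The alignment ran on past the printed end of Serpina1b, to bases after its start.

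Some facts of the libraries touch the results. Depth is not stated, and steps among the lowest values gave estimates of 21.6 M to 40.6 M reads, where M stands for 1e6. Libraries of one group correlated across genes at r = 0.952 to 0.989, and those of different groups at 0.928 to 0.986. The summed level of 13 pancreatic acinar markers was 2318 RPKM in LF+CR 1, 397 in HF+CR 1 and 43.8 in LF+Ex 1, against at most 38.6 in the other libraries. That 38.6 was in HF+CR 2 and was nearly all Cela1 (38.4 RPKM), which was at 4.68 RPKM or more in every library. Prss2, Ctrb1 and Clps were at 5.92, 7.32 and 5.09 RPKM in LF+Ex 1 and at 0 in HF+CR 2. The summed level of 8 bile duct markers was 148 RPKM in LF 2 and 167 in HF+CR 3, against at most 74.6 elsewhere. Hepatocyte markers were high in every library, with 8 of them summing to 17704 to 29139 RPKM. Alb, the defining marker left out of that sum, was listed at 0 in 14 libraries, and its exact 0 may be a failed estimate. Calls of the members that changed without these libraries are named below. Results of other genes and the correlations are given only with all libraries. Without the 3 libraries with pancreatic transcripts, a test with fewer samples, the calls over all genes went from 1013 to 128 in HF+CR against LF+CR. They went from 533 to 30 in HF+Ex against LF+Ex and from 673 to 211 in LF+CR against LF.

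Serpina1b was the most abundant member, with a mean of 3053 RPKM over the 18 libraries, rank 21 of the 10356 genes. Serpina3k followed at 2417 RPKM, Serpina1d at 1783, Serpina1c at 1603, Serpina1a at 942 and Serpina1e at 576. Serpina3n and Serpina3m were lower, at 208 and 168 RPKM. Together the Serpina1 genes took 0.992% to 2.72% of all RPKM in a library, and the 3 Serpina3 genes 0.240% to 1.22%.

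**Figure D1:**
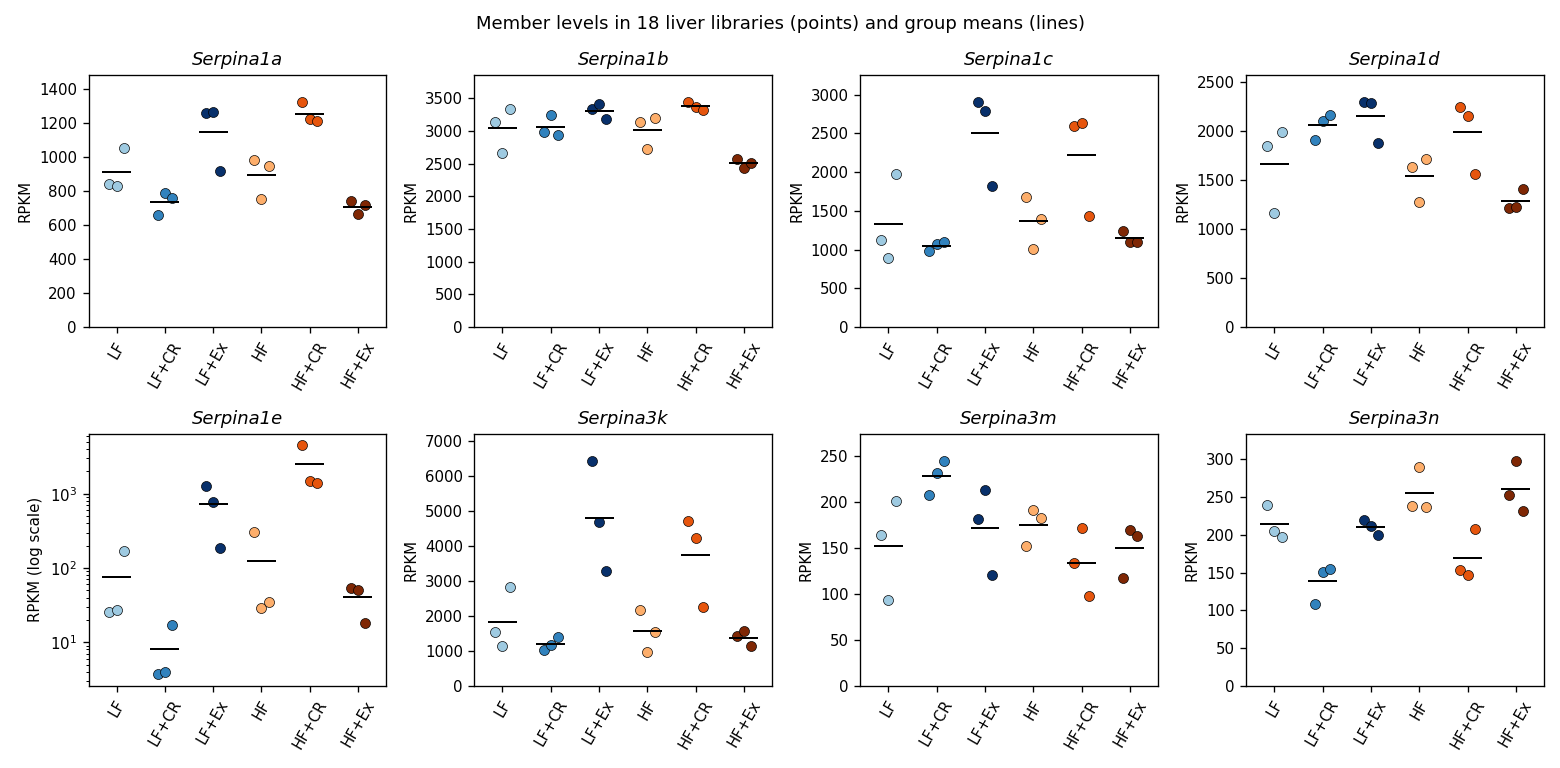
Levels of the 8 members in RPKM, with a point for each of 3 libraries in each of 6 groups and a line at the group mean; the axis of Serpina1e is logarithmic and the others start at 0. Serpina1e ran from 3.68 to 4512 RPKM while Serpina1b stayed between 2437 and 3446 RPKM.

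Differences between the groups were found for 7 of the 8 members. In the limma test over the 6 groups the adjusted p was 0.000740 for Serpina1e, 0.00458 for Serpina1a, 0.00534 for Serpina3n, 0.00558 for Serpina3k, 0.0222 for Serpina1c, 0.0452 for Serpina1d and 0.0487 for Serpina1b. Of all genes tested 21.8% passed. Serpina3m did not, at an adjusted p of 0.227. The count of 7 was 4 with no filter, 5 with median-of-ratios scaling and 4 without LF+Ex 1 or LF+Ex 2. It was 1, Serpina1e, without the 3 libraries with pancreatic transcripts.

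Serpina1e varied far more than its copies. It stood at 3.68, 3.96 and 17 RPKM in LF+CR, at 18.3, 50.9 and 53.9 in HF+Ex, and at 25.7, 27.1 and 171 in LF. In HF it was 29.2, 34.6 and 308 RPKM, in LF+Ex 185, 773 and 1253, and in HF+CR 1413, 1488 and 4512. Every HF+CR library was therefore above every other library, and every LF+CR library below every other. The other 4 groups formed the middle, where only LF+Ex stood clear of LF and of HF+Ex, and 1 library each of LF and HF lay far above the other two. The highest library held 1225 times the level of the lowest. Among all genes tested this was the 4th widest range on the log2 scale, and the span of the group means, 8.14, was the 2nd widest. On the estimated depths the lowest value stood for about 143 reads and the highest for about 141400.

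The within-group SD of Serpina1e was 1.34 on the log2 scale, against a median of 0.19 over all genes. The corresponding SD was 0.10 for Serpina1b, 0.17 for Serpina1a, 0.20 for Serpina3n, 0.24 for Serpina1d, 0.36 for Serpina3m, 0.39 for Serpina1c and 0.49 for Serpina3k. Single libraries of a group could thus differ widely for Serpina1e, Serpina1c and Serpina3k, and little for Serpina1b.

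The share of Serpina1e in the Serpina1 sum moved with its level. In LF+CR it was 0.0548% to 0.244%, in HF+Ex 0.318% to 0.929%, in LF 0.368% to 2.0% and in HF 0.474% to 3.97%. In LF+Ex it was 2.32% to 11.3%, and in HF+CR 13.7% to 31.9%. A copy with at most 0.244% of the family sum in LF+CR thus made at least 13.7% of it in HF+CR. It was the largest part only in HF+CR 1, a library with pancreatic transcripts. In HF+CR 2 (13.7%) and HF+CR 3 (15.8%) it was below Serpina1b, Serpina1c and Serpina1d. The whole Serpina1 sum was 11313 ± 2624 RPKM (SD, n = 3) in HF+CR, 9855 ± 1644 in LF+Ex, 7032 ± 1466 in LF, 6949 ± 1025 in HF, 6907 ± 346 in LF+CR and 5688 ± 185 in HF+Ex. Neighbours in that order overlapped, except that every LF+CR library was above every HF+Ex library. Leaving Serpina1e out, the sum was highest in LF+Ex at 9118 RPKM, followed by HF+CR at 8842, and again lowest in HF+Ex at 5647.

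**Figure D2:**
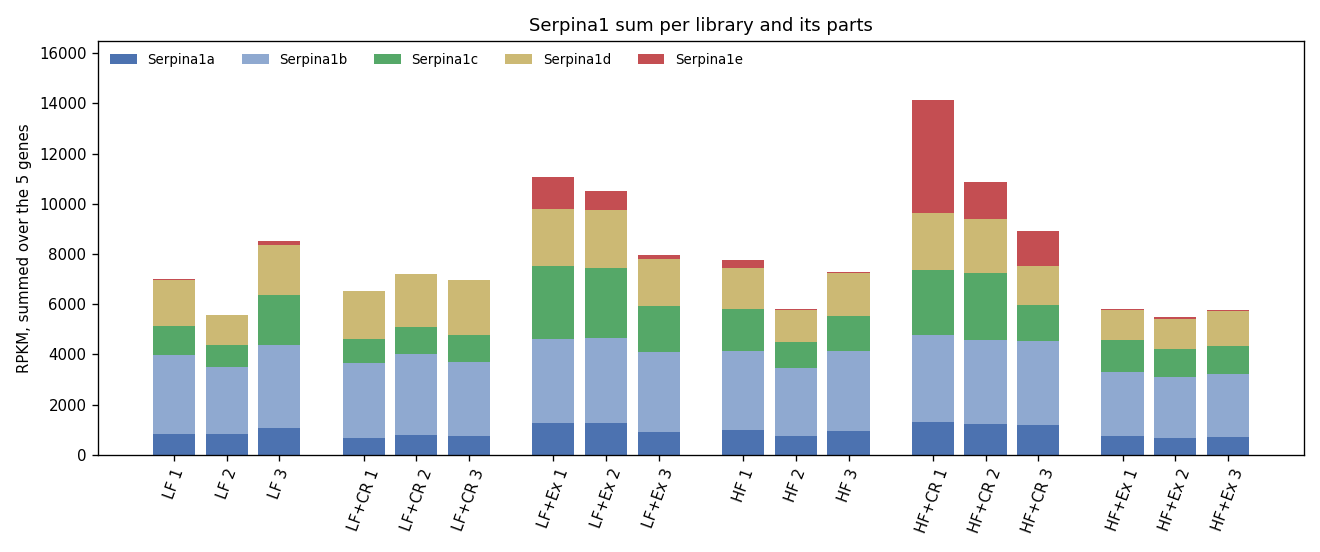
Summed RPKM of the 5 Serpina1 genes in each of the 18 libraries, with a colour for each gene and the axis starting at 0. The sum ran from 5478 RPKM in HF+Ex 2 to 14128 RPKM in HF+CR 1, and the part of Serpina1e is visible mainly in HF+CR and LF+Ex.

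HF was compared with LF to ask what the diet alone did. The limma fit called 0 of 8 members, and 0 of 8 reached an unadjusted p under 0.05. Over all genes 42 were called, 0.406%, and 1742, or 16.8%, reached that unadjusted p. The lowest adjusted p of a member was 0.452, for Serpina3n, at 214 ± 22.9 RPKM in LF and 255 ± 30.3 in HF, with a log2 difference of 0.25 ± 0.16 (SE). The interval of the other differences was wide where libraries spread, as for Serpina1e at 0.46 ± 0.97.

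The 2 diets were next compared under CR. In HF+CR 4 of 8 members were higher than in LF+CR, against 9.78% of all genes called and 4.7% called higher. They were Serpina1a, Serpina1c and Serpina1e and the contrapsin gene Serpina3k. Between these groups 6 of 8 members did not overlap, against 31.3% of all genes, and the median difference of the members was 0.53 against -0.0034 for all genes.

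Serpina1e rose by 8.14 ± 0.97 on the log2(RPKM + 1) scale (adjusted p = 0.000166). This call held under every alternative tried, with differences of 7.26 to 8.78, and without the 3 libraries with pancreatic transcripts the difference was 7.26 ± 1.17 (adjusted p = 0.0102). Serpina1a stood at 658, 757 and 792 RPKM in LF+CR and at 1210, 1225 and 1325 in HF+CR. It rose by 0.77 ± 0.14 (adjusted p = 0.00394), and the groups did not overlap.

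Serpina1c stood at 977, 1078 and 1094 RPKM in LF+CR and at 1438, 2597 and 2638 in HF+CR, a rise of 1.03 ± 0.29 (adjusted p = 0.0351). Serpina3k stood at 1038, 1180 and 1402 RPKM in LF+CR and at 2259, 4222 and 4710 in HF+CR, a rise of 1.57 ± 0.36 (adjusted p = 0.0131). In both genes HF+CR 3 was the lowest of its group and still above all LF+CR libraries. HF+CR 3 was also the library with the highest bile duct markers, whose part in these values was not tested. Without HF+CR 3 and LF 2 the differences were 1.32 ± 0.25 for Serpina1c (adjusted p = 0.00417) and 1.90 ± 0.34 for Serpina3k (adjusted p = 0.00288). Without the 3 libraries with pancreatic transcripts only Serpina1e was called, and Serpina1a differed by 0.65 ± 0.18 (adjusted p = 0.109), Serpina1c by 0.84 ± 0.37 (0.320) and Serpina3k by 1.26 ± 0.44 (0.205). Without LF+CR 1, HF+CR 1 or HF+CR 2 alone 2 members were called. Serpina1c also lost its call with median-of-ratios scaling, with only the groups compared, and without LF+CR 2 or LF+CR 3.

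The other 4 members were not called. Serpina1b was at 3055 ± 164 RPKM in LF+CR and 3376 ± 66.1 in HF+CR, and Serpina1d at 2059 ± 134 and 1988 ± 375. Serpina3m was at 208, 231 and 245 RPKM in LF+CR and at 97.3, 133 and 171 in HF+CR. Its groups did not overlap, in the direction opposite to Serpina3k, but the difference of -0.80 ± 0.27 missed the threshold (adjusted p = 0.0758). The sum of 8 hepatocyte markers also moved between these groups, from 20438 to 22623 RPKM in LF+CR to 26104 to 29139 in HF+CR. These markers did not move as a set. Apoa1 was at 5638 to 7334 RPKM in LF+CR and 11696 to 13320 in HF+CR. Cps1 (885 to 1112 against 592 to 647) and Ass1 (383 to 524 against 233 to 351) were lower in every HF+CR library. The rest overlapped. Of 7 macrophage markers Cd5l, Csf1r, Adgre1 and Vsig4 were higher in every HF+CR library, and Clec4f, Marco and Timd4 overlapped. The summed level of all 7 was 67.1 to 104 RPKM in LF+CR and 125 to 136 in HF+CR. The sums of 9 lymphocyte markers (0.646 to 1.11 against 2.28 to 6.86 RPKM) and of 7 neutrophil markers (0.384 to 0.770 against 3.08 to 10.5 RPKM) did not overlap either, and 6 and 5 of these markers were under 1 RPKM in all 18 libraries. Their part in the differences was not tested, and in whole liver fewer cells of a type and less RNA per cell cannot be told apart.

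Under Ex the diets differed the other way. In HF+Ex 6 of 8 members were lower than in LF+Ex, against 5.15% of all genes called and 1.01% called lower: all 5 alpha-1-antitrypsin genes and Serpina3k. The calls over all genes ran mostly upward, with 428 higher and 105 lower, but this split depended on scaling. It was 454 and 302 with median-of-ratios scaling and 381 and 339 with quantile normalization, with 6 and 3 members called, all of them lower. Between the groups 7 of 8 members did not overlap, against 30.9% of all genes.

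Serpina3k stood at 3275, 4671 and 6437 RPKM in LF+Ex and at 1151, 1430 and 1563 in HF+Ex. It fell by 1.75 ± 0.36 (adjusted p = 0.0208). Serpina1e fell by 3.89 ± 0.97 (adjusted p = 0.0344), from 737 ± 535 to 41.0 ± 19.7 RPKM. In each of these genes the lowest LF+Ex library was above the highest HF+Ex library.

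Serpina1a stood at 917, 1261 and 1268 RPKM in LF+Ex and at 663, 716 and 741 in HF+Ex, a fall of 0.69 ± 0.14 (adjusted p = 0.0215). Serpina1c stood at 1815, 2785 and 2906 RPKM in LF+Ex and at 1096, 1100 and 1244 in HF+Ex; the difference was -1.10 ± 0.29 (adjusted p = 0.0411). LF+Ex 3 was the lowest of its group for both genes, and no HF+Ex library reached it. Serpina1d went from 1884, 2289 and 2299 RPKM to 1211, 1227 and 1412, and fell by 0.75 ± 0.19 (adjusted p = 0.0379). Serpina1b, the steadiest copy, fell by 0.40 ± 0.10 (adjusted p = 0.0368), from 3181, 3342 and 3405 RPKM to 2437, 2518 and 2574. The change of the abundant, steady copy was small, and its groups were clear of each other.

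These 6 calls depended on single libraries. Of 18 fits that each left out 1 library, 9 kept all 6 calls, among them the fit without LF+Ex 3. In 5 fits all were lost, and in the rest 4 or 5 members were called. Without LF+Ex 1, without LF+Ex 2 or without any one of the 3 HF+Ex libraries limma called 0 of 8, and without the 3 libraries with pancreatic transcripts also 0 of 8, with differences of -3.32 ± 1.07 for Serpina1e, -1.51 ± 0.40 for Serpina3k and -0.39 ± 0.13 for Serpina1b. Serpina3n moved in the opposite direction, at 199 to 220 RPKM in LF+Ex and 231 to 298 in HF+Ex, and was not called (0.30 ± 0.16, adjusted p = 0.285). Marker sums moved with the comparison: 8 hepatocyte markers summed to 20648 to 26420 RPKM in LF+Ex and 17704 to 20399 in HF+Ex. The 7 macrophage markers summed to 100.1 to 137 RPKM in LF+Ex and 181 to 205 in HF+Ex, but did not move as a set. Cd5l was at 42.5 to 61.3 RPKM in LF+Ex and 102 to 129 in HF+Ex, and Csf1r and Adgre1 were likewise higher in every HF+Ex library. Timd4 was lower in every HF+Ex library, at 0.389 to 1.05 RPKM against 1.16 to 1.83. Marco, Vsig4 and Clec4f overlapped. The sums for 4 other cell types were also higher in every HF+Ex library: 9 stellate cell and fibroblast markers at 104 to 128 against 62.7 to 66.4 RPKM, 8 bile duct markers at 33.0 to 56.7 against 19.2 to 28.5, 9 lymphocyte markers at 2.05 to 5.80 against 0.366 to 1.42, and 7 neutrophil markers at 7.10 to 12.6 against 0.891 to 2.39. The bile duct sum was nearly all Spp1 (31.6 to 53.6 against 14.7 to 27.7 RPKM), and Krt19, Krt7, Epcam and Sox9 overlapped. Dcn made most of the stellate sum. It was higher in every HF+Ex library, as were Col1a1, Col1a2, Col3a1, Lrat and Reln, while Des, Acta2 and Pdgfrb overlapped. Of the lymphocyte and neutrophil markers 6 and 5 were under 1 RPKM in all 18 libraries. The part of these markers was not tested.

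**Figure D3:**
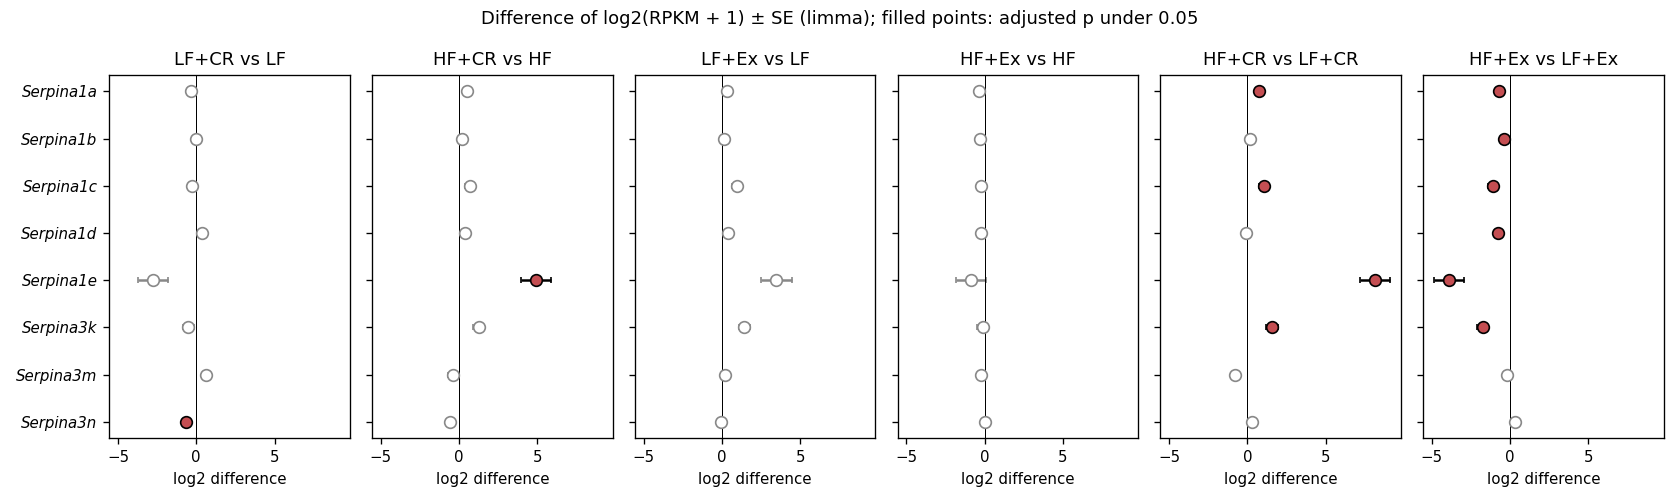
Differences of log2(RPKM + 1) with their SE from limma for the 8 members in 6 comparisons; filled points have an adjusted p under 0.05 over all genes tested. Serpina1e has the widest differences, 8.14 in HF+CR against LF+CR and -3.89 in HF+Ex against LF+Ex.

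CR was then compared with no treatment within each diet. These comparisons share their HF+CR and LF+CR libraries with the one between the diets, so they are given side by side and not as separate support. On the LF diet 1 of 8 members was called, against 6.5% of all genes and 3.49% called lower. It was Serpina3n, the acute-phase inhibitor of granzyme B, at 197, 206 and 240 RPKM in LF and 109, 151 and 155 in LF+CR. It fell by 0.64 ± 0.16 (adjusted p = 0.0296), and the groups did not overlap. Without the libraries with pancreatic transcripts, of which LF+CR 1 is the lowest Serpina3n value, the difference was -0.48 ± 0.16 (adjusted p = 0.164), and the call was also lost without LF 1 or LF 2.

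Serpina1e was lower in every LF+CR library than in any LF library, but the difference of -2.75 ± 0.97 was not called (adjusted p = 0.105). Serpina1a also had groups that did not overlap, at 832 to 1055 RPKM in LF and 658 to 792 in LF+CR (-0.30 ± 0.14, adjusted p = 0.228). For Serpina3m the LF+CR libraries were above those of LF, 93.1 to 200 RPKM (0.64 ± 0.27, adjusted p = 0.175). In all 4 of 8 members had such groups, against 23.3% of all genes.

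On the HF diet 1 of 8 members was called too, against 1.4% of all genes and 0.628% called higher. Serpina1e rose by 4.93 ± 0.97 (adjusted p = 0.0219), from 124 ± 160 RPKM in HF to 2471 ± 1768 in HF+CR. The 8 hepatocyte markers summed to 21183 to 23045 RPKM in HF and to 26104 to 29139 in HF+CR. Apoa1, Cps1, Ass1 and Fgb were higher in every HF+CR library, and the others overlapped. The part of these markers was not tested. The call was lost without HF 2, HF 3, HF+CR 1 or HF+CR 2, and without the 3 libraries with pancreatic transcripts, where the difference was 4.39 ± 1.07 (adjusted p = 0.143). Serpina1a was at 756, 947 and 986 RPKM in HF and Serpina3k at 974, 1535 and 2181. Both were higher in every HF+CR library, by 0.49 ± 0.14 (adjusted p = 0.123) and 1.26 ± 0.36 (adjusted p = 0.117), without a call. In all 5 of 8 members had groups that did not overlap, against 18.9% of all genes. Serpina3n was at 236, 238 and 290 RPKM in HF and 146, 154 and 207 in HF+CR. This difference, -0.60 ± 0.16, missed the threshold (adjusted p = 0.0922) although the groups did not overlap. Without HF+CR 3 and LF 2 limma called 4 members: Serpina1c (0.97 ± 0.25), Serpina1e (5.23 ± 1.11), Serpina3k (1.59 ± 0.34) and Serpina3n (-0.75 ± 0.16).

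Whether CR acted differently on the 2 diets was tested by the interaction. It was called for 1 of 8 members against 1.02% of all genes: Serpina1e, where the 2 CR differences were apart by 7.69 ± 1.37 on the log2 scale (adjusted p = 0.0119). Without the libraries with pancreatic transcripts it was 6.81 ± 1.51 (adjusted p = 0.119). It was also called for Serpina3k without HF+CR 3 and LF 2, at 2.38 ± 0.48 (adjusted p = 0.0182), and for Serpina1c, at 1.48 ± 0.36 (adjusted p = 0.0438). With all libraries Serpina1a had an interaction of 0.80 ± 0.20 (adjusted p = 0.0849) and Serpina3k of 1.77 ± 0.51 (0.144), neither called. For Serpina3n the interaction was 0.04 ± 0.23 (adjusted p = 0.971), the difference under CR being -0.64 on the LF diet and -0.60 on the HF diet.

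Ex was compared with no treatment in the same way, and no gene at all passed in limma, 0.0% on either diet. On the LF diet 4 of 8 members had an unadjusted p under 0.05, against 944 of all genes, or 9.12%. They were Serpina3k with a difference of 1.44 ± 0.36 (adjusted p = 0.428), Serpina1e with 3.48 ± 0.97 (0.506), Serpina1c with 0.96 ± 0.29 (0.506) and Serpina1a with 0.33 ± 0.14 (0.536). All libraries of LF+Ex were above all of LF for 2 of 8 members, Serpina1e and Serpina3k, while 0.83% of all genes had this pattern. The median of all genes in this comparison was -0.13, and 0.0017 with median-of-ratios scaling, so the members' values are to be read against that shift. LF 3 was the highest LF library for Serpina1a, Serpina1b, Serpina1c, Serpina1d, Serpina1e, Serpina3k and Serpina3m.

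On the HF diet 2 of 8 members had an unadjusted p under 0.05, against 377 of all genes, or 3.64%. Serpina1b was at 2721, 3143 and 3197 RPKM in HF and Serpina1a at 756 to 986, and both were lower in every HF+Ex library, by -0.26 ± 0.10 and -0.33 ± 0.14 on the log2 scale. Such a pattern was found for these 2 of 8 members and for 8.06% of all genes. The adjusted p was 1 for each. The interaction of Ex and diet was called for 0 of 8 members and 0.0% of genes. At an unadjusted p under 0.05 it reached 6 of 8 members and 525 of all genes, or 5.07%. The values of these members ran from -0.39 ± 0.14 for Serpina1b to -4.35 ± 1.37 for Serpina1e, with an adjusted p of 0.818 for each of the 6.

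Levels of the Serpina3 genes were dominated by Serpina3k. It made 66.9% to 94.3% of the Serpina3 sum, and at least 88.1% in every LF+Ex and HF+CR library. The sum was 5176 ± 1623 RPKM in LF+Ex, 4033 ± 1293 in HF+CR, 2195 ± 916 in LF, 1993 ± 559 in HF, 1792 ± 243 in HF+Ex and 1573 ± 224 in LF+CR, and each group overlapped its neighbour in that order. Serpina3n and Serpina3m followed other orders. Serpina3n was highest in HF+Ex (261 ± 34.3 RPKM) and lowest in LF+CR (138 ± 25.6), and Serpina3m highest in LF+CR (228 ± 18.7) and lowest in HF+CR (134 ± 36.9).

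The closest pair of members crossed the families. Over the 18 libraries Serpina1c and Serpina3k had a Pearson r of 0.97 and a Spearman rho of 0.96 on log2(RPKM + 1), and r was 0.96 without the 2 most extreme Serpina3k libraries and 0.95 after removal of the group means. Their coding sequences were 58.7% identical. Serpina1e and Serpina3k had r = 0.89 and rho = 0.87, while Serpina3k and Serpina3n, whose coding sequences were 82.6% identical, had r = -0.11 and rho = -0.14. The libraries share groups and scaling, so these values are a description of 28 pairs and carry no p.

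**Figure D4:**
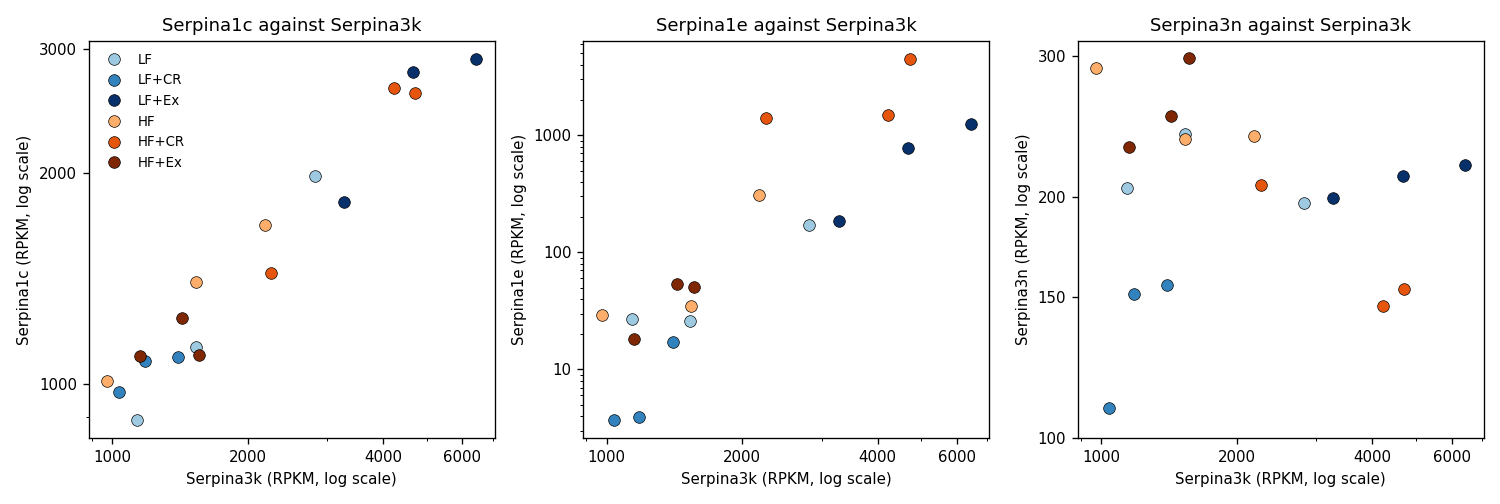
Levels of Serpina1c, Serpina1e and Serpina3n against Serpina3k in 18 libraries, on log axes in RPKM, with a colour for each group. Serpina1c and Serpina1e lie along a rising band with Serpina3k (r = 0.97 and 0.89), and Serpina3n does not (r = -0.11).

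The genes outside both families that tracked them most closely were sought among 5692 genes with a mean of at least 5 RPKM, by Pearson r over the 18 libraries. For the Serpina1 sum they were 1300017J02Rik, Hsd3b5 (a liver steroid dehydrogenase), BC024386, Mup7 (a major urinary protein) and Lifr (the leukemia inhibitory factor receptor), with r from 0.89 down to 0.86. For the Serpina3 sum they were Hsd3b5, Ces3b (a carboxylesterase), the neighbouring pseudogene Serpina4-ps1, Slco1a1 (an organic anion transporter) and Mup7, with r from 0.94 to 0.91. Hsd3b5 was at 118 RPKM in HF+CR, 61.6 in LF+Ex, 5.13 in LF, 0.161 in HF, 0.0890 in HF+Ex and 0.00476 in LF+CR, so that it had the same 2 highest groups as both sums.

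Serpina3n was tracked by other genes: Rmdn3, Tlr12 (a Toll-like receptor), Mgmt (a DNA repair methyltransferase), Paqr7 (a progestin receptor) and Cpt1a (the carnitine palmitoyltransferase of liver mitochondria), with r from 0.92 to 0.89. Paqr7 was at 55.1 RPKM in HF+Ex, 52.7 in HF and 12 in LF+CR. Serpina1e was added to this search after its values were seen. Its closest genes were Ttc39c, C8b and C6 (components of the complement attack complex), Amacr (a racemase of branched fatty acids) and Serpinf2 (alpha-2-antiplasmin), with r from 0.94 to 0.89.

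Within the block on chromosome 12 the change was uneven. Serpina4-ps1 stood at 0.103 ± 0.178 RPKM in LF+CR and 39.6 ± 49.2 in HF+CR and rose by 4.23 ± 1.13 (adjusted p = 0.0283). Serpina10, the protein Z-dependent inhibitor, rose in the same comparison from 61.6 ± 7.58 to 91.7 ± 9.21 RPKM (adjusted p = 0.0151). Those were 2 of the 5 tested Serpina genes of the block that are neither members nor Serpina3 genes. Serpina6, which encodes corticosteroid-binding globulin, was at 435 ± 175 RPKM in LF+CR and 268 ± 66.6 in HF+CR and was not called in any comparison. Serpina3g was one of 2 tested among the other Serpina3 genes, and rose in HF+Ex against LF+Ex from 2.90 ± 0.352 to 7.69 ± 0.932 RPKM (1.15 ± 0.26, adjusted p = 0.0244), while Serpina3k fell there.

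**Figure D5:**
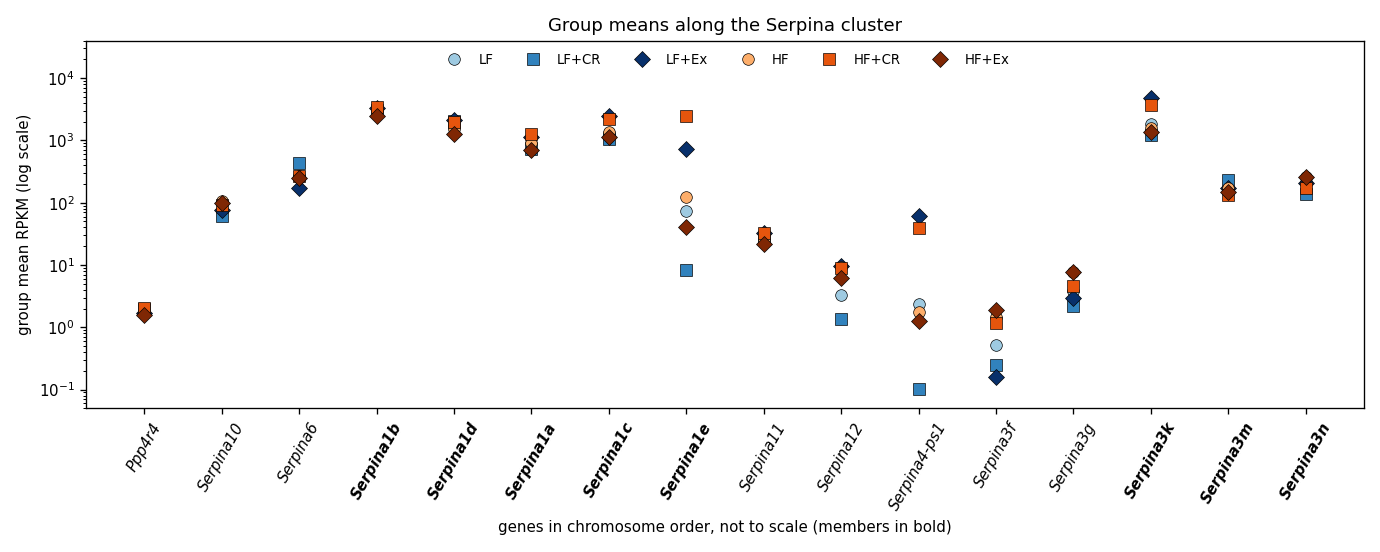
Group mean RPKM on a log axis for the tested genes of the block in chromosome order, with spacing not to scale and the members in bold. Serpina1e and Serpina4-ps1 show the widest spread between groups, and Serpina1b the narrowest among the members.

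Other secreted serpins of liver gave a mixed picture, with 10 of 11 tested. In HF+CR against LF+CR 2 rose and 1 fell, with a list median of 0.49: Serpinf2 went from 212 ± 16.3 to 408 ± 32.3 RPKM (0.94 ± 0.11, adjusted p = 0.000166), Serping1, the C1 inhibitor, from 264 ± 51.8 to 403 ± 22.0, and Serpinc1, antithrombin, fell from 1171 ± 63.4 to 835 ± 45.0. In HF+Ex against LF+Ex 1 rose and 3 fell. Serpina7, thyroxine-binding globulin, rose from 15.3 ± 2.11 to 39.6 ± 3.56 RPKM (adjusted p = 0.0185), while Serpinc1, Serpine2 and Serpinf1 fell. In LF+CR against LF Serpinc1 rose and Serping1 fell, in HF+CR against HF Serpinf2 rose, and Serpinf2 had a called CR by diet interaction of 0.83 ± 0.16 (adjusted p = 0.0182).

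Proteases that serpins inhibit were mostly low in liver, and 6 of 15 were tested. F11, the clotting protease factor XI that alpha-1-antitrypsin can inhibit, rose in HF+CR from 11.6 ± 3.40 RPKM in LF+CR and 20.0 ± 2.12 in HF to 44.6 ± 4.51 (adjusted p = 2.64e-05 and 0.00947), and its CR by diet interaction was called. In HF+Ex against LF+Ex Proc, protein C, fell and Plau, urokinase, rose. Elane, neutrophil elastase, was under 1 RPKM in all 18 libraries.

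Of 14 other protease inhibitors of plasma 12 were tested. In HF+CR against LF+CR 4 rose and 0 fell: the murinoglobulins Mug1 (1.77 ± 0.22, adjusted p = 0.000252) and Mug2, the pregnancy zone protein gene Pzp, and Itih1. In LF+CR against LF 2 fell, Mug1 (-1.27 ± 0.22, adjusted p = 0.00443) and Pzp. In HF+Ex against LF+Ex 1 fell, Itih1. Mug1 and Pzp had called CR by diet interactions.

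Of 20 genes of an acute-phase list, a group known mainly for induction in hepatocytes by inflammation, 20 were tested. Induction was not shown here for each gene of the list. In LF+CR against LF 3 fell, all serum amyloid A genes, in the comparison where Serpina3n fell: Saa1 went from 60.8 ± 30.1 to 5.70 ± 0.367 RPKM (-3.05 ± 0.60, adjusted p = 0.00802). In HF+CR against HF 2 fell, Orm3 and Lbp, and in HF against LF 1 rose, Orm3. In HF+CR against LF+CR, where Serpina3n was not called (adjusted p = 0.268), 5 rose and 1 fell. Those that rose were Saa1 (3.46 ± 0.60, adjusted p = 0.00234), Saa2, Saa4, Steap4 and Fgg, and Lbp fell. In HF+Ex against LF+Ex 6 rose and 3 fell. The 3 that fell there with Serpina1 were the fibrinogen genes Fga, Fgb and Fgg, and Saa1, Saa2, Orm2, Orm3 and Lcn2 were among those that rose. Saa4 and Orm1 were not called there.

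Among 16 genes of IL-6, STAT3 and glucocorticoid signalling 1 fell in HF+CR against LF+CR, Fkbp5, and 1 fell in HF+Ex against LF+Ex, Lifr, from 34.6 ± 8.70 to 9.91 ± 1.18 RPKM (adjusted p = 0.0187). Among 13 liver transcription factors Hnf4a fell in HF+CR against LF+CR, from 183 ± 6.74 to 128 ± 2.19 RPKM (adjusted p = 0.0149), and in HF+Ex against LF+Ex (adjusted p = 0.0257), thus both in the comparison where 4 members rose and in the one where 6 fell. Of 10 genes of the growth hormone axis Cux2, a repressor more abundant in female liver, rose from 0.220 ± 0.210 RPKM in LF to 6.84 ± 2.21 in LF+CR and was at 0.0134 ± 0.0142 in HF+CR. Stat5a fell in LF+CR against LF, and Ghr, the growth hormone receptor, rose in HF+CR against LF+CR.

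Clearance and secretory genes, 20 of 20 tested, had few calls. Lrp1, a receptor that takes up serpin-protease complexes, fell in LF+CR against LF from 99.3 ± 13.2 to 64.5 ± 5.48 RPKM (adjusted p = 0.0304). Edem1, which marks misfolded glycoproteins for degradation, rose there from 18.2 ± 1.60 to 25.7 ± 2.06 RPKM (adjusted p = 0.0388) and was lower in HF+CR than in LF+CR (adjusted p = 0.0219). No other gene of that list was called in any comparison of 2 groups.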

How the data were processed

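PolyA RNA of 18 liver libraries was analysed from the RPKM values that the authors deposited, 1 row for each RefSeq transcript. TopHat 1.4.1, Cufflinks 1.3.0 and mm10 are named in the submitters' processing notes. The annotation version is not given in the sources used here. Groups came from the sample titles. Of 30582 rows, 30003 were named through RefSeq and 180 through GENCODE, and 399 kept their identifier.

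The unscaled log2(RPKM + 1) values were fitted with limma 3.58.1 under R 4.3.3: 1 model with a mean for each of 6 groups, 12 residual degrees of freedom, an intensity trend, two-sided tests and Benjamini-Hochberg adjustment over the 10356 genes that reached 1 RPKM in 3 or more libraries. A gene was called at an adjusted p under 0.05, and every adjusted p here is from limma. A difference on this scale understates the change of low genes. The sums of family members were not tested. On simulated data for LF+CR against LF, 42%, 78%, 96% and 96% of 50 genes each were recovered at 1.5, 2, 3 and 4-fold over 10356 genes, and 14 unchanged genes were called.

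Every member is named where it passes, and as a rule up to 4 called members of each of 10 lists of related genes. A further called gene of these lists is not reported here. The members, the lists and the tests were chosen with earlier results of these data known. Sequences were compared with Python 3.11.15 and Biopython 1.88. Depth was estimated from the steps among the lowest values, and no counting interval was computed. Alternatives were another pseudocount, filter, scaling, gene row or variance model, only the groups compared, a replicate block, and leaving out libraries.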

Additional observations from a re-analysis of the deposited data

Results flagged for a closer look

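Serpina1e was the member whose response to CR differed between the diets by a test of the difference itself. The CR by diet interaction was 7.69 ± 1.37 on the log2(RPKM + 1) scale (limma, adjusted p = 0.0119), with a CR difference of -2.75 ± 0.97 on the LF diet and 4.93 ± 0.97 on the HF diet. It was not called without filter, nor without the 3 libraries with pancreatic transcripts (6.81 ± 1.51, adjusted p = 0.119), and it was called without each single library in turn.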

How the results depend on the processing

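Of 2088 results of single members under the alternatives, 1939 kept their direction and side of the threshold, 58 had no call in either fit but turned sign, 10 gained a call and 81 lost one, and none changed sign while called. The untested family sums turned sign in 11 of 322. Members called in LF+CR against LF went from 1 to 0 with no filter, with only the groups compared and without the pancreas libraries (LF+CR 1, LF+Ex 1, HF+CR 1), and were 0 to 1 when single libraries were left out. In HF+CR against HF 1 became 0 under the same 3 settings and 4 without the bile duct libraries (LF 2, HF+CR 3), with 0 to 3 over single libraries, the 3 being without HF+CR 3. In HF+CR against LF+CR 4 became 2 with no filter, 1 without the pancreas libraries, and 3 with median-of-ratios scaling or only the groups compared. Over single libraries 2 to 5 were called, 2 of them without LF+CR 1, HF+CR 1 or HF+CR 2. In HF+Ex against LF+Ex 6 became 0 with no filter, 3 with quantile normalization and 0 without the pancreas libraries, with 0 to 6 over single libraries. The CR by diet interaction had 1 member, 0 with no filter, 0 without the pancreas libraries, but 3 without the bile duct libraries, with 1 to 2 over single libraries, 2 without LF+Ex 3 or HF+CR 3. Over the 6 groups 7 became 4 with no filter, 5 with median-of-ratios scaling, and 6 with a pseudocount of 0.1 or quantile normalization. The count was 1 without the pancreas libraries and 4 to 7 over single libraries. Where a setting leaves fewer libraries the test has fewer samples; for the other settings the cause was not tested. HF against LF, both comparisons of Ex with no treatment and the Ex by diet interaction had 0 members called under each alternative.

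Libraries with the same replicate number did not deviate together (median r of 0.0043 over 45 pairs, from -0.49 to 0.32), so the numbers were not taken as pairs. With the replicate block Serpina1c in HF+Ex against LF+Ex had an adjusted p of 0.0565, which left 5 members called there, and over the 6 groups 5 members were called in place of 7. The counts of members called in the other comparisons were as without the block. The deposited values carry no counts, so no limit from depth can be computed, and 3 libraries per group set the precision. The split of reads between the Serpina1 copies limits every value of a single copy.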
